A study of Rattus norvegicus with 4 samples.

Results

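Collagen chain genes were described in cultured progenitors of rat tendon, the tendon stem/progenitor cells or TSPCs, after treatment with U0126. U0126 is a small-molecule inhibitor of the MEK kinases, which phosphorylate and activate the ERK kinases. Of 32623 rows in the deposited gene table, 46 were taken: every row whose gene name has the form Col, a number, a and a number, plus the 2 rows named NEWGENE_621351. That name stands for the annotated copies of the collagen I alpha 2 gene. The rows were grouped by protein class into 12 fibrillar, 9 FACIT (fibril-associated), 9 network-forming, 6 beaded and 5 transmembrane rows, and 5 others. RNA sequencing covered 2 libraries of TSPCs given U0126 and 2 control libraries of TSPCs given DMSO, the solvent. The sources used here do not give the strain, age, dose, exposure time or tendon of origin. The labels number the replicates without saying whether they came from separate animals or cultures. The p-values therefore measure only the spread between these libraries.

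Collagens are secreted proteins of intertwined alpha chains. The fibrillar types I, II, III, V and XI build the tensile fibrils of connective tissue, FACIT chains sit on the surface of those fibrils, type IV networks form basement membranes, and type VI forms beaded filaments around cells. Tendon is built mainly of type I fibrils with smaller amounts of types III and V, whereas types II, IX, X and XI are known chiefly from cartilage.

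Total counts lay between 36888913 and 38671289 in the U0126 libraries and between 38890310 and 42785190 in the controls. Of 7 listed tendon genes, 5 were tested and 3 rose: Scx 1.70-fold, Comp 8.42-fold and Fmod 2.41-fold. The summed level of that list was 102 and 107 CPM (counts scaled to the library total, after TMM scaling) with U0126 and 59.8 and 56.0 CPM in the controls, and its part in the collagen results was not tested. Tnmd had 2 counts over the U0126 libraries and 7 over the controls, and Kera had 0 counts in all 4. Of 46 collagen rows, 42 had at least 1 count in some library and 32 had enough counts to be tested. The 4 rows with 0 counts in every library were Col9a1, Col6a4, Col6a5 and Col6a6. A count of 0 allows up to between 0.0689 and 0.0829 CPM in a library, for counting error only. Of the 32 tested rows, 10 rose with U0126, 4 fell and 18 did not pass edgeR's quasi-likelihood test at an adjusted p under 0.05. That is 43.8% called, against 19.9% of all 14023 genes tested, of which 8.41% rose and 11.5% fell. The median log2 fold change was 0.05 over the tested collagen rows and 0.02 over all genes tested. Col2a1 passed the filter on low counts only through the U0126 libraries and Col7a1 only through the controls, while the other 30 passed through both groups.

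**Figure D1:**
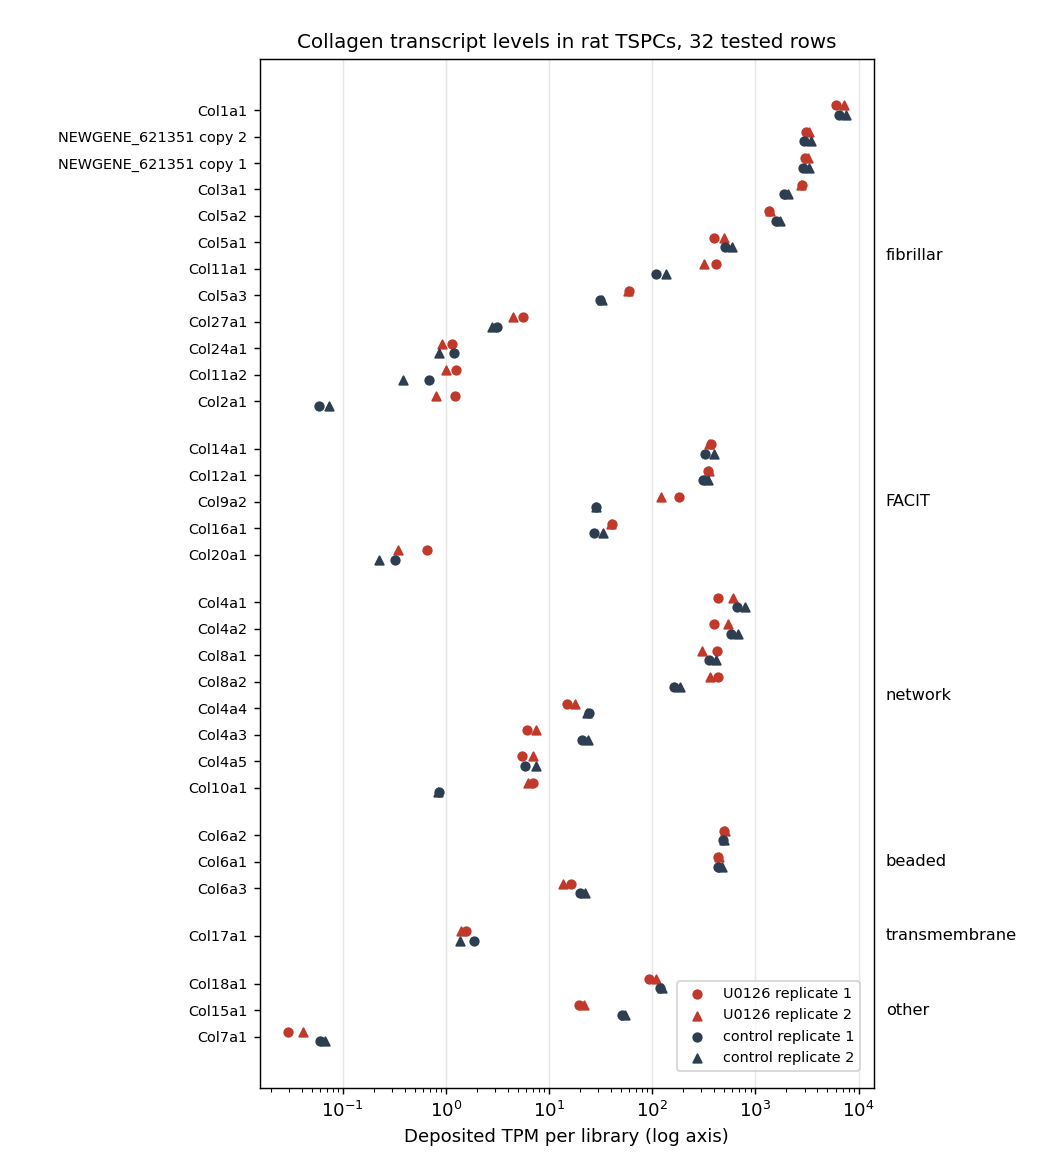
Deposited TPM (a level scaled by gene length and library) of the 32 tested collagen rows in each library, on a log axis. U0126 libraries are drawn in red above the control libraries in dark blue, circles are replicate 1 and triangles replicate 2. Levels run from 0.0294 TPM (Col7a1) to 7514 TPM (Col1a1), and the red and dark symbols of Col2a1, Col9a2, Col10a1, Col11a1 and Col4a3 stand well apart.

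The start regions of the collagen genes that changed at least 2-fold, and whose calls held in every alternative fit that tested them, are shown to give the sequence context of the genes that follow. They are 300-base windows from RefSeq on build GRCr8, from 250 bases before to 50 bases after the transcript start, on the strand of the gene. The promoter table held a window for 35 of 44 collagen gene names; Col2a1 is among those without one. Capitals in these 6 mark matches, on either strand, to 5 motifs: the TATA box, spelled TATAAA; the CCAAT box, named for its letters; the GC box, spelled GGGCGG; the AP-1 element, spelled TGANTCA; and the ETS core, spelled CCGGAA. Matches may overlap, and the overlapping GC boxes of Col8a2 print as 1 stretch of capitals.
Col10a1, chr20:39737286-39737585: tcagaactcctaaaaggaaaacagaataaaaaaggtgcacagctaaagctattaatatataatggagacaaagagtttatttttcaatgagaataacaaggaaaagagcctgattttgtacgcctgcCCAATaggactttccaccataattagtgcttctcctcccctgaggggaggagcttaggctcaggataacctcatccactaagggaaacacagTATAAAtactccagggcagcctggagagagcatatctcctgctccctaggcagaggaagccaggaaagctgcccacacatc
Col9a2, chr5:139892548-139892847: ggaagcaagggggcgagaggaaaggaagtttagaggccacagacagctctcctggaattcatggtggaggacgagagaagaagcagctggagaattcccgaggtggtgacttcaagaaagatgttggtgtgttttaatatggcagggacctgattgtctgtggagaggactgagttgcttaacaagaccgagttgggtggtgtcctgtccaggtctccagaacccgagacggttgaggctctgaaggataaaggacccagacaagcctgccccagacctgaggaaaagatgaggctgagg
Col11a1, chr2:204508886-204509185: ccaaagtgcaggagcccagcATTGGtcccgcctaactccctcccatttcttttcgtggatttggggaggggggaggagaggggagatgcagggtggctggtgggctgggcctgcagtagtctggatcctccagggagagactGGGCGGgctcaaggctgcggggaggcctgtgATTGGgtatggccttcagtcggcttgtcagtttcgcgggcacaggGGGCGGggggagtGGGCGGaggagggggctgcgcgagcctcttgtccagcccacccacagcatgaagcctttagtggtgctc
Col8a2, chr5:143870519-143870818: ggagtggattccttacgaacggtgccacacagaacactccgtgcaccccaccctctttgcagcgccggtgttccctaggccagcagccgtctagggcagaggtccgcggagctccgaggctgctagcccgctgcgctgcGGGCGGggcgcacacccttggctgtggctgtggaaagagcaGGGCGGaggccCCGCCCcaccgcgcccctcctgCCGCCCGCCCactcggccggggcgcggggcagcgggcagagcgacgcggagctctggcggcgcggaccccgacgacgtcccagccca
Col4a3, chr9:91323740-91324039: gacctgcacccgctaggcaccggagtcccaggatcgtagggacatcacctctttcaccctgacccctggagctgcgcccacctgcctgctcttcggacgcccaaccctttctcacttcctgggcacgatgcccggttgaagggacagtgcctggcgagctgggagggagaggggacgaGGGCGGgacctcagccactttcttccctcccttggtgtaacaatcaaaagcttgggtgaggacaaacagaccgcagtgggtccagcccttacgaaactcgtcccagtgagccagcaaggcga
Col15a1, chr5:66297296-66297595: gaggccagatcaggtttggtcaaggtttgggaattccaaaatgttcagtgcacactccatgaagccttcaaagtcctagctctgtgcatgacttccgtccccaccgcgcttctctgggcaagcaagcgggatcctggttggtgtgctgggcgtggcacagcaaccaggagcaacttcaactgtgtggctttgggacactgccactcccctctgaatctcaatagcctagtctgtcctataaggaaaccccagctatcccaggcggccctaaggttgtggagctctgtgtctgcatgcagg
The Col10a1 window held 1 TATA box and 1 CCAAT box, and that of Col11a1 held 2 CCAAT boxes and 3 GC boxes. Col8a2 had 5 GC boxes and Col4a3 had 1. The Col9a2 and Col15a1 windows held none of the 5 motifs, and none of the 6 windows held an AP-1 element or an ETS core in these letters. Over all 33465 windows, 14.2% held TATAAA, 37.5% CCAAT, 33.1% GGGCGG, 7.33% TGANTCA and 14.9% CCGGAA. Among the 35 collagen genes with a window, 11.4%, 31.4%, 54.3%, 2.86% and 5.71% held them in any of their windows, in the same order. These shares count genes and the shares over all windows count single windows, so they are not directly comparable. GC content was 44% in the Col10a1 window and 73.7% in that of Col8a2, beside a median of 51.7% over all windows.

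The type I chains, the most abundant collagen transcripts in TPM, did not pass the test. Col1a1 (ENSRNOG00000003897, chromosome 10, 82745801 to 82762789, rn6), the alpha 1 chain of type I collagen, had 20526 and 23943 CPM in the U0126 libraries and 21073 and 23767 CPM in the controls. The groups overlapped (log2 fold change -0.01 ± 0.11 SE, edgeR adjusted p = 0.956). The first NEWGENE_621351 copy (chromosome 4, 29529854 to 29564768) had 7458 and 7872 CPM with U0126 and 6948 and 7645 CPM in the controls. The second copy (chromosome 4, 31534225 to 31569151) had 7836 and 8266 CPM with U0126 and 7291 and 8094 CPM in the controls. Both copies overlapped between groups, with edgeR adjusted p of 0.647 and 0.679. In TPM the first copy stood at 0.972 to 0.981 times the second in every library. The sources used here do not say how the counting shared reads between these near-identical copies. The level of either copy is therefore uncertain, as is every sum, ratio or share below that includes both. The TPM ratio of Col1a1 to the sum of both copies was 0.987 and 1.09 in the U0126 libraries and 1.09 and 1.11 in the controls. Type I rows made up 58.1% and 60.7% of the summed collagen TPM with U0126 and 61.3% and 62.1% in the controls.

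Of 12 fibrillar rows, 6 rose and 6 did not pass, beside 8.41% of all genes tested that rose. The median log2 fold change was 0.32. Col3a1, the chain of type III collagen that is found with type I in distensible tissue and healing tendon, had 7901 and 7623 CPM in the U0126 libraries and 5072 and 5410 CPM in the controls. Both U0126 libraries lay above both controls, a 1.48-fold rise (edgeR adjusted p = 0.00595). Its TPM ratio to Col1a1 was 0.471 and 0.390 with U0126 and 0.295 and 0.279 in the controls. Without control replicate 1 the Col3a1 call was narrowly lost (edgeR adjusted p = 0.0535; the range over all its alternatives was 4.75e-07 to 0.0535).

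Types V and XI are the minor fibrillar collagens that sit within type I and type II fibrils and limit their diameter. Among their 5 tested chains, Col11a1, Col11a2 and Col5a3 rose, and Col5a1 and Col5a2 did not pass. Col11a1 had 1854 and 1398 CPM with U0126 and 467.6 and 569.7 CPM in the controls, a 3.14-fold rise (log2 fold change 1.65 ± 0.16 SE, edgeR adjusted p = 8.24e-04). Col5a3 had 210.0 and 203 CPM with U0126 and 107 and 108 CPM in the controls, a 1.92-fold rise (edgeR adjusted p = 6.09e-04). In both genes the U0126 libraries lay far above the controls. Col5a1 had 1353 and 1665 CPM with U0126 and 1691 and 1902 CPM in the controls (log2 fold change -0.25 ± 0.13 SE, edgeR adjusted p = 0.207). Col5a2 had 3507 and 3594 CPM with U0126 and 3983 and 4240 CPM in the controls (log2 fold change -0.21 ± 0.09 SE, edgeR adjusted p = 0.146). For these 2 chains the groups did not overlap, though neither difference passed. Within a library, the TPM of Col11a1 was 1.04 and 0.641 times that of Col5a1 with U0126, against 0.212 and 0.229 times in the controls. The same ratio for Col5a3 over Col5a1 was 0.150 and 0.118 with U0126 and 0.0615 and 0.0552 in the controls, while Col5a1 over Col5a2 was 0.296 and 0.354 with U0126 and 0.323 and 0.341 in the controls. The ratios of Col11a1 and of Col5a3 to Col5a1 did not overlap between groups, and that of Col5a1 to Col5a2 did.

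The remaining fibrillar chains were low. Col2a1, the chain of the main cartilage collagen, had 124 and 75 counts with U0126 and 6 and 8 counts in the controls. In CPM that was 3.27 and 2.07 with U0126 and 0.151 and 0.184 in the controls, a 15.6-fold difference (log2 fold change 3.97 ± 0.45 SE, edgeR adjusted p = 0.00150). Because Col2a1 passed the filter on low counts only through the U0126 libraries, a row tested in this way had to differ, and its place among the 10 risers and 6 fibrillar risers lends them no support. It remained among the scarcest tested chains, at 1.24 and 0.796 TPM with U0126. Col11a2, the partner of Col11a1 in type XI collagen, had 4.35 and 3.37 CPM with U0126 and 2.12 and 1.26 CPM in the controls, a 2.29-fold rise (edgeR adjusted p = 0.0386). Col11a2 did not pass when control replicate 1, control replicate 2 or U0126 replicate 1 was left out (0.0653, 0.263 and 0.0671 as adjusted p by edgeR; range over all alternatives 0.0119 to 0.263). Col27a1, a minor fibrillar chain of developing cartilage, had 17.9 and 14.3 CPM with U0126 and 9.88 and 8.48 CPM in the controls, a 1.76-fold rise (edgeR adjusted p = 0.0156). Col27a1 did not pass when control replicate 1 or 2 was left out (edgeR adjusted p = 0.0792 and 0.166; range 0.00109 to 0.166). Col24a1, also a minor fibrillar chain, had 2.66 and 2.13 CPM with U0126 and 2.75 and 1.88 CPM in the controls, and the groups overlapped.

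**Figure D2:**
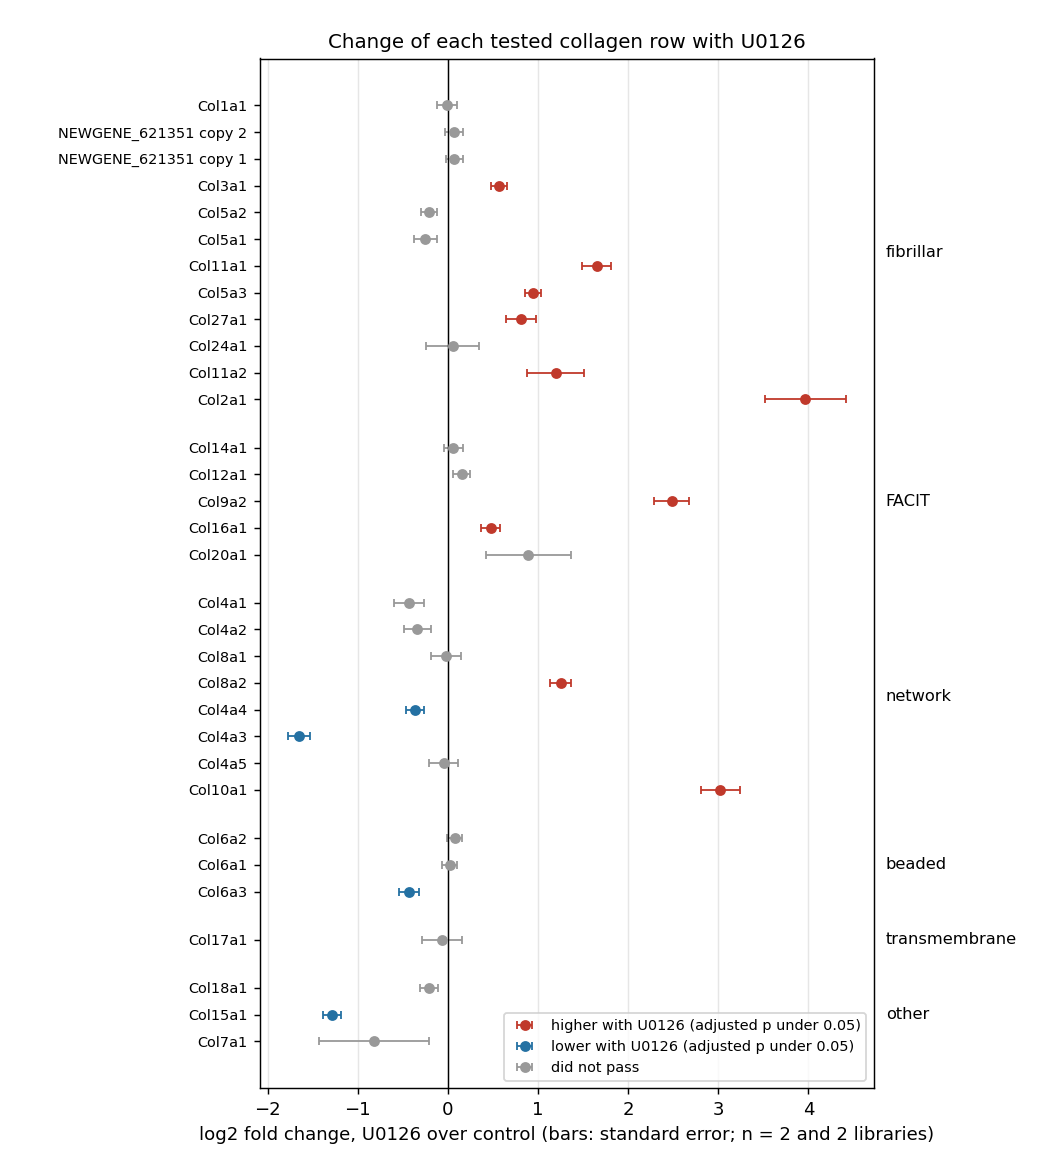
Log2 fold change of each tested collagen row, U0126 over control, by class, with bars for the standard error (2 libraries a group). Red rows rose, blue rows fell and grey rows did not pass an adjusted p under 0.05. Col10a1 stands at 3.02, Col9a2 at 2.48 and Col4a3 at -1.65. Col2a1, at 3.97, passed the low-count filter only through the U0126 libraries.

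Among the FACIT chains, 2 of 5 tested rose and 3 did not pass, beside 8.41% of all genes tested that rose. Col9a2, a chain of the type IX collagen that coats cartilage fibrils, had 313 and 206 CPM in the U0126 libraries and 47.3 and 45.6 CPM in the controls, and both U0126 libraries lay far above both controls. This was a 5.58-fold rise (log2 fold change 2.48 ± 0.19 SE, edgeR adjusted p = 3.52e-04). The other chains of type IX were at or near 0 counts: Col9a1 had 0 counts in every library, and Col9a3 had 2 counts over the U0126 libraries and 0 over the controls. Col16a1, a FACIT chain of skin and cartilage matrix, had 124 and 118 CPM with U0126 and 80.9 and 93.7 CPM in the controls, a 1.39-fold rise (edgeR adjusted p = 0.0198). Col16a1 did not pass when control replicate 1 or 2 was left out (edgeR adjusted p = 0.226 and 0.0785; range 0.00237 to 0.226). Col12a1 and Col14a1, the FACIT chains found on tendon fibrils, were far more abundant. Col14a1 had 1148 and 1094 CPM with U0126 and 989.8 and 1165 CPM in the controls (log2 fold change 0.06 ± 0.11 SE), and the groups overlapped. Col12a1 had 2142 and 2175 CPM with U0126 and 1866 and 2019 CPM in the controls, without passing the test (log2 fold change 0.15 ± 0.09 SE, edgeR adjusted p = 0.289). The last tested member, Col20a1, was at 1.66 and 0.856 CPM with U0126 and 0.807 and 0.551 CPM in the controls (edgeR adjusted p = 0.234). Col19a1, with 10 counts over the U0126 libraries and 18 over the controls, and Col22a1, with 0 and 8 counts in the same order, were not tested.

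Network-forming chains went both ways, with 2 of 8 tested rows higher, 2 lower and 4 not passing, beside 8.41% higher and 11.5% lower over all genes tested. Col10a1, the short-chain collagen of hypertrophic cartilage, had 320 and 270 counts in the U0126 libraries and 40 and 41 in the controls. That was 8.44 and 7.46 CPM with U0126 and 1.01 and 0.942 CPM in the controls, with no overlap (log2 fold change 3.02 ± 0.22 SE, edgeR adjusted p = 2.70e-04). Col8a2, a chain of the type VIII network known from the corneal endothelium and vessel walls, had 1065 and 888.6 CPM with U0126 and 390.3 and 430.6 CPM in the controls, a 2.38-fold rise (edgeR adjusted p = 7.34e-04). Its partner chain Col8a1 had 1070 and 754.6 CPM with U0126 and 867 and 980 CPM in the controls, where the groups overlapped (log2 fold change -0.02 ± 0.17 SE). The TPM of Col8a2 was 1.03 and 1.22 times that of Col8a1 with U0126, against 0.465 and 0.454 times in the controls.

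Type IV collagen is made from alpha chains encoded by pairs of genes that lie head to head. Col4a1 and Col4a2 encode the chains of nearly all basement membranes, and Col4a3, Col4a4 and Col4a5 those of more specialised ones such as the glomerular membrane. In the RefSeq windows the start sites of Col4a1 and Col4a2 lie 77 bases apart on chromosome 16, and those of Col4a3 and Col4a4 lie 413 bases apart on chromosome 9. The Col4a1 window (GRCr8, plus strand) is shown because it holds both start sites of its pair, with capitals for the bases between them.
Col4a1, chr16:84885347-84885646: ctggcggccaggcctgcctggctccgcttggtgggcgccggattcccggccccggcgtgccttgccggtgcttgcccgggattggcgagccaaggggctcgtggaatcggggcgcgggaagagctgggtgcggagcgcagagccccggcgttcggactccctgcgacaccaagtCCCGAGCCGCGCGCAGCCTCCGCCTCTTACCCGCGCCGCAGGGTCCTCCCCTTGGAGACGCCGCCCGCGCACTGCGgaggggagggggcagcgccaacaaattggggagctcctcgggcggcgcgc
This window was 75% GC. The Col4a1 and Col4a2 windows shared 176 bases, and those of Col4a3 and Col4a4 shared 88 bases, so that the first 88 bases of the Col4a3 window given above also belong to the Col4a4 window.

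The transcripts of the Col4a3 and Col4a4 pair both fell, but by different amounts. Col4a3 (chromosome 9, 88357556 to 88485830, rn6) had 23.7 and 28.7 CPM in the U0126 libraries and 79.1 and 85.8 CPM in the controls, a 3.15-fold fall (log2 fold change -1.65 ± 0.12 SE, edgeR adjusted p = 2.94e-04). Col4a4 had 46.9 and 52.0 CPM with U0126 and 63.1 and 64.4 CPM in the controls, a 1.29-fold fall (edgeR adjusted p = 0.0390). Every U0126 library lay below both controls for both genes. The TPM ratio of Col4a3 to Col4a4 was 0.407 and 0.423 with U0126 and 0.869 and 1.02 in the controls, which do not overlap, and with 2 libraries against 2 an exact permutation test of such a ratio cannot go below 0.333. Col4a4 did not pass when control replicate 1 or 2 was left out (edgeR adjusted p = 0.239 and 0.294; range over all alternatives 0.00513 to 0.294). LOC100911572, a row on chromosome 9 annotated as resembling the type IV alpha 3 chain, may share reads with Col4a3. It had 132 and 166 counts with U0126 and 491 and 576 in the controls, and with its counts added to Col4a3 the log2 fold change was -1.66.

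The Col4a1 and Col4a2 pair was much more abundant and did not pass the test. Col4a1 had 1652 and 2311 CPM with U0126 and 2488 and 2852 CPM in the controls (log2 fold change -0.43 ± 0.16 SE, edgeR adjusted p = 0.113). Col4a2 had 1140 and 1554 CPM with U0126 and 1602 and 1804 CPM in the controls (log2 fold change -0.34 ± 0.15 SE, edgeR adjusted p = 0.172). In both genes the U0126 libraries lay below the controls but stood far from each other, replicate 1 being the lower. DESeq2 called Col4a1 lower (adjusted p = 0.0235; range over all alternatives 0.00188 to 0.448), and without U0126 replicate 2 both passed edgeR's test as lower (adjusted p = 0.00188 and 0.00368). The TPM ratio of Col4a1 to Col4a2 was 1.09 and 1.12 with U0126 and 1.17 and 1.19 in the controls, which do not overlap. Col4a5 had 20.6 and 25.9 CPM with U0126 and 21.5 and 26.6 CPM in the controls, with overlapping groups, and Col4a6 had 2 counts over the U0126 libraries and 0 over the controls.

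Type XV and type XVIII collagens, which are associated with basement membranes and carry fragments with anti-angiogenic activity, are close relatives. Col15a1 had 58.8 and 65.8 CPM in the U0126 libraries and 149 and 155 CPM in the controls, and the groups stood far apart. This was a 2.44-fold fall (log2 fold change -1.28 ± 0.10 SE, edgeR adjusted p = 3.17e-04). LOC108348074, a second row on chromosome 5 annotated as resembling this chain, had 41.4 and 47.8 CPM with U0126 and 108 and 112 CPM in the controls. With both rows summed the log2 fold change of Col15a1 was -1.29, against -1.28 on its own. Col18a1 had 270 and 313 CPM with U0126 and 336 and 338 CPM in the controls (log2 fold change -0.21 ± 0.10 SE, edgeR adjusted p = 0.192). It passed, as lower, only without U0126 replicate 2 (edgeR adjusted p = 0.0202; range over all alternatives 0.0202 to 0.541). The TPM ratio of Col15a1 to Col18a1 was 0.210 and 0.203 with U0126 and 0.426 and 0.441 in the controls.

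**Figure D3:**
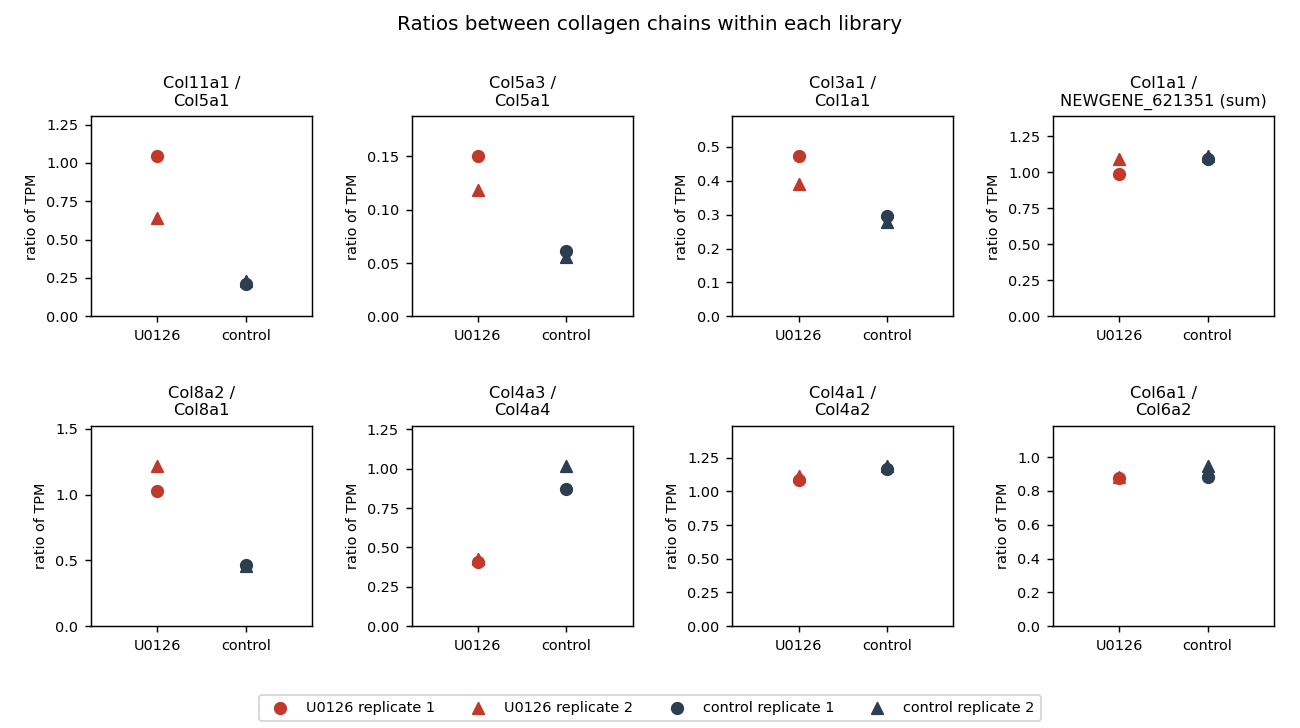
Ratio of the deposited TPM of 2 collagen chains within each library, with the U0126 libraries at the left (red) and the controls at the right (dark blue) of each panel; circles are replicate 1 and triangles replicate 2, and each axis starts at 0. The ratios Col11a1 to Col5a1, Col5a3 to Col5a1, Col3a1 to Col1a1 and Col8a2 to Col8a1 are higher with U0126 and Col4a3 to Col4a4 is lower, without overlap. Col4a1 to Col4a2 is also lower without overlap, by a smaller amount. Col6a1 to Col6a2 and Col1a1 to the summed NEWGENE_621351 rows lie close to each other in all 4 libraries.

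Of the 3 tested beaded filament chains, 1 fell and the other two did not pass, beside 11.5% of all genes tested that fell. Col6a1 had 770.1 and 787 CPM in the U0126 libraries and 751 and 787 CPM in the controls, and Col6a2 had 1056 and 1073 CPM with U0126 and 1023 and 1001 CPM in the controls. Neither passed (log2 fold change 0.02 ± 0.09 SE and 0.07 ± 0.09 SE). Col6a3, the longest chain of type VI collagen, had 87.8 and 73.1 CPM with U0126 and 104 and 113 CPM in the controls, a 1.35-fold fall (edgeR adjusted p = 0.0393). Col6a3 did not pass when control replicate 1 or 2 was left out (edgeR adjusted p = 0.155 and 0.294; range 0.00217 to 0.294). Per length, Col6a3 was far below its partners in every library: its TPM was 0.0379 and 0.0309 times that of Col6a1 with U0126 and 0.0460 and 0.0477 times in the controls.

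Transmembrane collagens were scarce. Of 5 rows, only that of Col17a1, the hemidesmosome collagen of epithelia, had enough counts, at 5.06 and 4.45 CPM with U0126 and 5.80 and 4.16 CPM in the controls (log2 fold change -0.06 ± 0.22 SE), and the groups overlapped. Col25a1 had 8 counts over the U0126 libraries and 26 over the controls (ratio 0.345, 95% exact interval 0.135 to 0.785 for counting error only). The 2 rows of Col23a1 had 16 and 4 counts with U0126 and 22 and 4 in the controls, and Col13a1 had 0 counts with U0126 and 4 in the controls. Among the other classes, Col7a1, the anchoring fibril collagen, was at 0.158 and 0.221 CPM with U0126 and 0.328 and 0.345 CPM in the controls (edgeR adjusted p = 0.393). Col26a1 and Col28a1 had 2 counts or fewer over the 4 libraries.

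The 46 rows took 6.05% and 6.49% of all counts in the U0126 libraries and 5.87% and 6.48% in the controls, and the groups overlapped. Without the type I rows the share was 2.54% and 2.56% with U0126 and 2.26% and 2.46% in the controls. By class, FACIT chains made up 4.47% and 3.85% of the summed collagen TPM with U0126 and 3.46% and 3.52% in the controls, and network chains 8.17% and 8.23% with U0126 and 9.04% and 9.24% in the controls. Fibrillar chains held 82.3% and 83.1% with U0126 and 81.9% and 82.1% in the controls.

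Markers of other cell types were read beside the collagens of those tissues. Over all genes tested, 8.41% rose and 11.5% fell. Of 6 listed cartilage markers, 4 could be tested: Matn3, a cartilage matrix protein, rose, and Acan, the large cartilage proteoglycan, fell. Matn1 had 0 counts in every library, and the summed level of the list was 703 and 912.7 CPM with U0126 and 1815 and 2048 CPM in the controls, most of it Acan. Smooth muscle and pericyte markers, from cells that also make type IV collagen, had 3 of 4 tested members lower. Their sums, most of them Acta2, were 4315 and 5212 CPM with U0126 and 8025 and 8390 CPM in the controls. Epithelial markers summed to 3.74 and 3.84 CPM with U0126 and 2.62 and 2.83 CPM in the controls, with Epcam, Cdh1, Krt5 and Krt14 at 0 in every library. Of 2 tested, Krt18 rose, with 10 counts in each U0126 library and 0 in each control. It was tested only through the U0126 libraries, so this rise lends no support. Endothelial markers summed to 0.791 and 0.166 CPM with U0126 and 0.782 and 0.574 CPM in the controls, with Cdh5 at 0. Skeletal muscle markers had 4 of 4 tested members lower. Their sums, most of them Acta1, were 84.0 and 125.8 CPM with U0126 and 202 and 223 CPM in the controls. Of these members, Myod1 had 9 and 3 counts with U0126 and 84 and 82 in the controls. It was tested only through the control libraries, so its fall lends no support. Myog, the listed member not tested, went the other way, with 25 and 8 counts with U0126 and 6 and 0 in the controls. Of 5 listed bone markers, 3 were tested: Alpl (3.03-fold) and Ibsp (2.22-fold) rose and Runx2 fell (2.20-fold). The list summed to 53.1 and 47.3 CPM with U0126 and 25.1 and 25.2 CPM in the controls. Too low to be tested were Sp7, with 0 and 2 counts with U0126 and 0 and 0 in the controls, and Bglap, with 0 and 4 and then 2 and 0. Macrophage and leukocyte markers had 1 of 4 tested members lower, with sums of 11.5 and 11.2 CPM with U0126 and 14.1 and 13.0 CPM in the controls, and Ptprc at 0. The lower member, Adgre1, had 2 and 0 counts with U0126 and 23 and 16 in the controls. It too was tested only through the control libraries, so this fall lends no support. The part of these cell types in the collagen results was not tested, and in bulk RNA fewer cells of a type and less RNA per cell cannot be told apart.

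The enzymes that modify, fold and cross-link collagen were read beside the chains. Of 32 listed genes the table held 31, and 28 were tested: 6 rose, 3 fell and 19 did not pass, which is 32.1% called with a median log2 fold change of 0.02. Over all genes tested 19.9% were called, 8.41% higher and 11.5% lower. P4ha3, a catalytic subunit of prolyl 4-hydroxylase, had 325 and 328 CPM in the U0126 libraries and 163 and 165 CPM in the controls, a 1.99-fold rise (edgeR adjusted p = 4.97e-04). P4ha1, another catalytic subunit of that enzyme, did not pass, with 265 and 264 CPM with U0126 and 277 and 263 CPM in the controls (log2 fold change -0.03 ± 0.09 SE). Serpinh1, the collagen chaperone HSP47, had 1876 and 2106 CPM with U0126 and 2040 and 1995 CPM in the controls and did not pass either (log2 fold change -0.02 ± 0.10 SE). Among the cross-linking oxidases, Loxl1 had 990.4 and 992.4 CPM with U0126 and 588 and 585 CPM in the controls, a 1.69-fold rise (edgeR adjusted p = 0.00147). Loxl3, of the same family, fell to 147 and 153 CPM with U0126, against 222 and 227 CPM in the controls (edgeR adjusted p = 0.00421). Lox itself had 1159 and 1142 CPM with U0126 and 677 and 1137 CPM in the controls, without passing (edgeR adjusted p = 0.313). The counts of its control replicates differed widely. Its log2 fold change was 0.76 without control replicate 2 and 0.015 without control replicate 1. In deposited TPM Lox went the other way, at 448 and 447 with U0126 and 514 and 548 in the controls. The cause of this disagreement was not tested. Adamts14, a protease that removes the amino-terminal propeptide of procollagen, had 8.20 and 10.6 CPM with U0126 and 20.1 and 17.9 CPM in the controls, a 2.02-fold fall (edgeR adjusted p = 0.00666). Loxl3 did not pass when control replicate 1 or 2 was left out (edgeR adjusted p = 0.0581 and 0.0703; range 7.82e-07 to 0.0703), nor did Adamts14 when control replicate 1 was (0.0735, the top of a range from 3.14e-05). Without control replicate 1 the list held 2 risers and 1 fallen gene, and without control replicate 2 it held 3 and 1. Without U0126 replicate 1, 9 rose and 4 fell, and without U0126 replicate 2, 7 rose and 7 fell. Counts over all genes moved too, with 306 higher and 607 lower without control replicate 1, 295 and 604 without control replicate 2, 1385 and 1892 without U0126 replicate 1, and 2138 and 2506 without U0126 replicate 2.

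Receptors that bind or take up collagen also divided by member. Of 13 listed, 11 were tested: 2 rose, 3 fell and 6 did not pass, which is 45.5% of 11 genes called, against 19.9% of all genes tested, with a median log2 fold change of 0.06. Adgrg6, an adhesion receptor that binds type IV collagen, had 20.9 and 18.0 CPM in the U0126 libraries and 54.7 and 56.4 CPM in the controls, a 2.86-fold fall (edgeR adjusted p = 3.10e-04). Itgb1, the integrin beta 1 chain shared by all collagen-binding integrins, had 1673 and 1733 CPM with U0126 and 2542 and 2918 CPM in the controls, a 1.60-fold fall (edgeR adjusted p = 0.00449). Its fibroblast partner Itga11 had 1448 and 1451 CPM with U0126 and 1244 and 1381 CPM in the controls, without passing (edgeR adjusted p = 0.335). Ddr2, the discoidin-domain tyrosine kinase receptor for fibrillar collagens, had 143 and 162 CPM with U0126 and 110 and 103 CPM in the controls, a 1.43-fold rise (edgeR adjusted p = 0.0126). Ddr1, its sister receptor, named here after its values were seen, went the other way, with 73.0 and 101 CPM with U0126 and 132 and 144 CPM in the controls, a 1.59-fold fall (edgeR adjusted p = 0.0231). Ddr1 did not pass when control replicate 1 or 2 was left out (edgeR adjusted p = 0.0943 and 0.168; range 1.22e-04 to 0.168). Mrc2, the endocytic receptor that clears collagen fragments, had 498 and 511 CPM with U0126 and 332 and 365 CPM in the controls, a 1.45-fold rise (edgeR adjusted p = 0.00814). With control replicate 1 or 2 left out, neither Ddr2 nor Mrc2 passed (edgeR adjusted p for Ddr2 0.101 and 0.165, for Mrc2 0.120 and 0.0589; ranges 4.04e-04 to 0.165 and 1.54e-05 to 0.120).

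**Figure D4:**
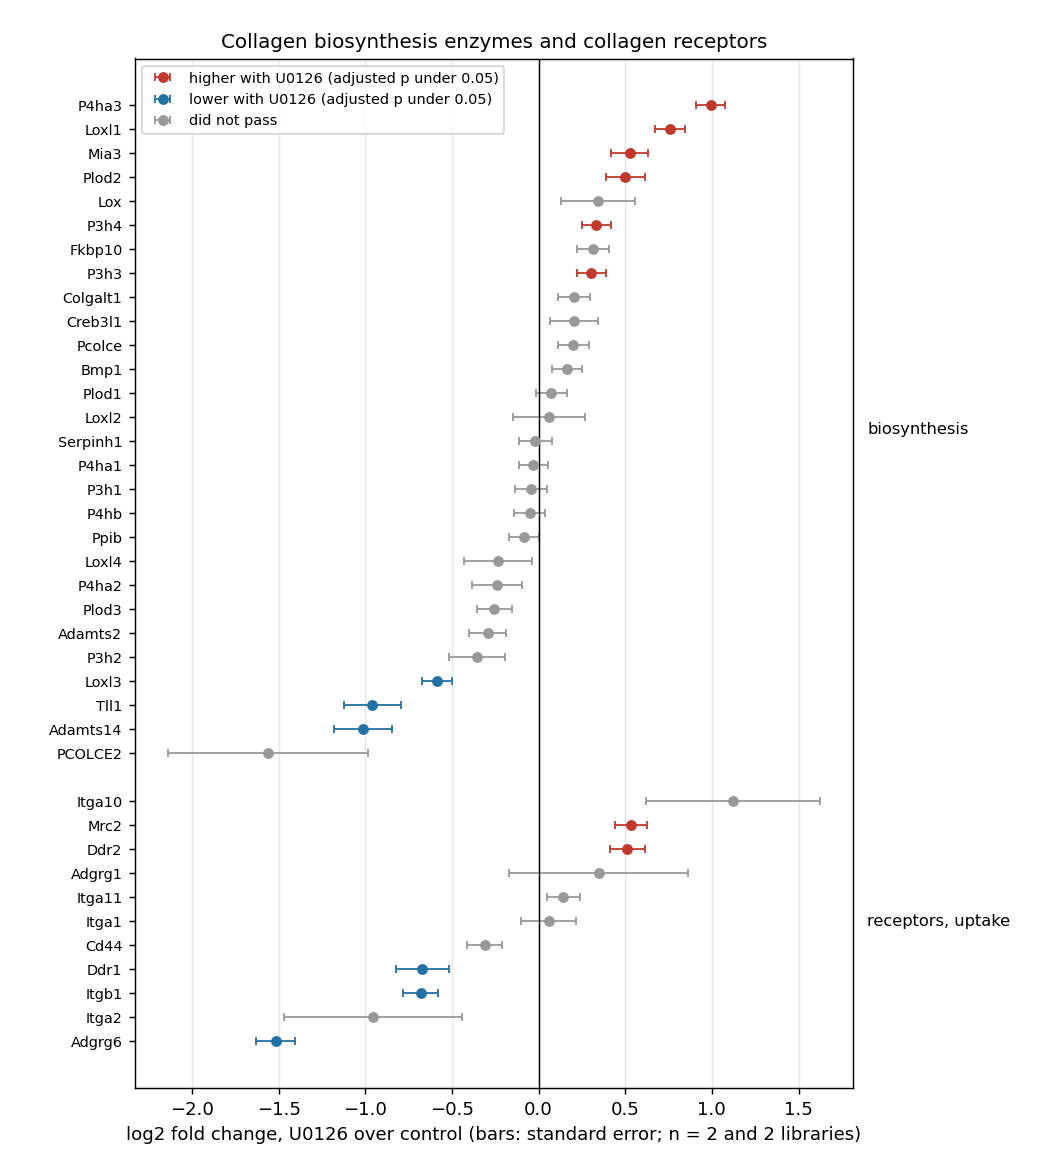
Log2 fold change, U0126 over control, of the 28 tested collagen biosynthesis genes and the 11 tested collagen receptors and uptake genes, with bars for the standard error (2 libraries a group). Red genes rose, blue genes fell and grey genes did not pass an adjusted p under 0.05. P4ha3 at 0.99 and Loxl1 at 0.76 lead the called rises and Adgrg6 at -1.52 the called falls.

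The calls differed in how far they rested on 1 library. Col11a1, Col5a3, Col9a2, Col8a2, Col4a3 and Col15a1 were called in every alternative fit, and Col2a1 and Col10a1 in each fit that tested them. Col2a1 passed the filter on low counts only through the U0126 libraries, so the holding of its call lends no support. The calls of Col3a1, Col27a1, Col11a2, Col16a1, Col4a4 and Col6a3 were lost in at least 1 fit that left out a library. Such a fit leaves 1 library in a group, and calls over all genes tested moved with it too. Over these fits the log2 fold change ran from -0.70 to -0.21 for Col4a1 and from -0.33 to -0.11 for Col18a1. Without U0126 replicate 2 the log2 fold change was -0.59 for Col4a2 and -0.42 for Col5a1. Without U0126 replicate 1 the values were -0.13 and -0.11.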

How the data were processed

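RNA was extracted with Trizol, per the labels' protocols, and the submitters' processing notes list the build rn6. The sources used here do not give the aligner, counting tool or strand setting. The authors deposited 1 table with a count, a TPM and an FPKM per gene and library, per the file headers. The deposited counts were whole numbers and not normalized. The deposited TPM values, scaled by gene length, were used for levels between genes and within-library ratios. The deposited FPKM values were not used. Every measurement column matched a sample.

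Counts were filtered with filterByExpr (minimum count 10, minimum total 15), scaled by TMM and tested with edgeR 4.0.16 (glmQLFit and glmQLFTest, two-sided, R 4.3.3), U0126 against control, with Benjamini-Hochberg adjustment over all 14023 genes tested. Fold changes carry a prior count of 0.125, and a standard error is the absolute log2 fold change over the square root of F. Intervals cover counting error only. Alternatives were RLE factors, library totals, other filters, DESeq2 1.42.0, limma-voom 3.58.1, a replicate block and leaving out each library.

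Collagen rows were chosen by name, and lists of enzymes, receptors and markers with earlier results of these data known. Library values are given for every tested collagen row, called or not. From the other lists the 4 genes of smallest adjusted p are named, plus Serpinh1, P4ha1, Lox, Itga11 and Ddr2. Crtap was not found under its symbol. One marker list is not reported here.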

Additional observations from a re-analysis of the deposited data

How the results depend on the processing

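Leaving out 1 library at a time moved the counts most. Collagen rows that rose numbered 6 to 10 and those that fell 2 to 8. Biosynthesis genes that rose numbered 2 to 9 and those that fell 1 to 7, receptor genes that rose 0 to 2 (edgeR, none with control replicate 1 or 2 left out, where 2 had an unadjusted p under 0.05), and over all genes 295 to 2138 rose and 604 to 2506 fell. The difference in the collagen share of all counts, 0.0963 percentage points with all 4 libraries, ran from -0.212 to 0.405. Named genes whose log2 fold change turned sign did not pass in the fit to all 4 libraries: Col1a1 ran from -0.14 to 0.096, the second NEWGENE_621351 copy from -0.0099 to 0.14, Col14a1 from -0.057 to 0.18, Col17a1 from -0.29 to 0.19, Serpinh1 from -0.11 to 0.064 and P4ha1 from -0.067 to 0.0061. The same held of Col8a1 (-0.29 to 0.20), Col4a5 (-0.23 to 0.11), Col24a1 (-0.20 to 0.34) and, with library totals alone as its lowest value, Col6a1 (-0.036 to 0.051). The cause was not tested. For the collagen counts, RLE factors, library totals alone, no filter, limma-voom and summing the NEWGENE_621351 copies left 10 rows higher and 4 lower, and the stricter filter removed Col2a1 and Col10a1 from the test. Replicate numbers do not show which samples share a source (correlation of replicate differences -0.046 over 14023 genes). With the replicate block, 10 collagen rows rose and 3 fell, with Col4a1 added and Col4a4 and Col6a3 lost (adjusted p = 0.0579 and 0.0570 by edgeR), and 958 genes rose and 1413 fell in all. Chains under about 1 CPM are limited by counting error, and chains with 0 counts are not shown to be absent. Adding the related LOC rows to Col15a1 and Col4a3 was chosen after seeing the data.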
